A study of Mus musculus with 23 samples.

Results

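The enzymes that build cholesterol and fatty acids, and the proteins that set their expression, were examined in β-TC6 cells with and without a functional circadian clock. The set holds 32 genes, chosen by symbol from pathway knowledge with earlier results of these data known, and each of the 32 was found among the 20599 genes of the RNA-seq table. It comprises 7 enzymes of the mevalonate pathway up to squalene, 10 enzymes from squalene to cholesterol, 6 regulators of the sterol response and sterol carriers, 4 enzymes of fatty acid synthesis and 5 fatty acid elongases and desaturases.

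β-TC6 is a mouse line derived from an insulinoma that secretes insulin, used here at passages 5 to 15. RNA was sequenced from 3 genotypes with 3 libraries each, prepared from wells collected in triplicate without any treatment. WT cells carry no engineered mutation. Bmal1-/- cells carry a CRISPR-Cas9 deletion of exon 8 of Bmal1, and Clock-/- cells a CRISPR-Cas9 deletion of exons 6 to 7 of Clock, the exons that encode the DNA-binding domain of each protein. Each knockout line is a clone, so the effect of the deletion and differences between clones cannot be told apart, and the p-values below measure the spread between wells. Chromatin immunoprecipitation followed by sequencing (ChIP-seq) of THRAP3, an RNA-binding protein of splicing and transcription, gave 2 peak lists from WT and 2 from Bmal1-/- cells.

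Cholesterol is made from acetyl-CoA through mevalonate, isoprenoid diphosphates, squalene and lanosterol. The genes of this pathway are known targets of SREBP-2, and those of fatty acid synthesis of SREBP-1. Both factors are held in the endoplasmic reticulum by SCAP and the INSIG proteins when sterols are plentiful and are released to the nucleus when sterols run low. BMAL1 and CLOCK pair to bind E-box sites and drive the daily rhythm of many metabolic genes.

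Expression is given as TPM, a transcript level corrected for gene length and scaled to the same total in each library. The values keep no count of reads, and 687 to 905 genes were listed at 0 across WT, 2189 to 2691 across Bmal1-/- and 791 to 1010 across Clock-/- libraries. The transcript of Bmal1, named Arntl in the annotation, was at 3.63, 3.52 and 4.22 TPM across WT and at 3.52, 3.32 and 3.41 TPM in Bmal1-/- libraries, and that of Clock was at 40.9 to 49.7 TPM across WT and 28 to 46.6 TPM across Clock-/- libraries. Across Clock-/- libraries Arntl was higher, at 13.2, 10.6 and 16.2 TPM (log2 1.57 against WT), and the cause was not tested. Clock was at 30.9, 35.2 and 36.5 TPM across Bmal1-/- libraries. These gene-level values cannot show whether an exon was lost and therefore check neither label. The 13 beta cell markers were all above 1 TPM in every library and summed to 57474 to 60124 TPM across WT, 42091 to 45712 across Bmal1-/- and 33848 to 40151 in Clock-/- cells, most of it Ins2 and Iapp. They moved in both directions: 5 fell and 1 rose in Bmal1-/- cells, and 6 fell and 3 rose in Clock-/- cells. Ins1 went from a mean of 2307 TPM in WT to 61 TPM in Clock-/- cells, and Slc2a2, the glucose transporter, from 109 to 6.8 TPM, while Nkx6-1, a beta cell transcription factor, rose in both knockouts (log2 1.29 and 0.93). Of 6 markers of other islet endocrine cells 4 were in the table, and they summed to 557 to 576 TPM across WT, 67.6 to 76.5 across Bmal1-/- and 1499 to 1674 in Clock-/- cells, nearly all of it Gcg and Sst, with Ppy and Ghrl at or near 0. Of 8 markers of exocrine, duct, fibroblast and immune cells 5 were in the table. They summed to 17.6 to 19.1, 3.69 to 4.67 and 24.1 to 25.2 TPM in the same order of genotypes. Ptprc and Col1a1 were near 0 throughout, and most of each sum was Cd68 and Cela1. Cd68, an immune marker, fell from a WT mean of 9.1 TPM to a Bmal1-/- mean of 1.24 TPM. Its Clock-/- mean rose to 21.7 TPM. Cela1, an exocrine marker, fell from a WT mean of 8.04 TPM to knockout means of 1.69 TPM (Bmal1-/-) and 2.2 TPM (Clock-/-). The part of these differences in the results below was not tested, and in cell populations a change in the mix of cells and a change in RNA per cell cannot be told apart.

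The lipid synthesis genes were well expressed. Their median level in WT cells was 94.8 TPM, against 16.2 TPM over the 15031 genes tested, and 29 of 32 lay above that median of all genes. Scd2, a stearoyl-CoA desaturase, was the most abundant at 2040 TPM, and Acss2, which makes acetyl-CoA from acetate, the least at 8.61 TPM. The coefficient of variation between libraries of a genotype had a median over the 32 genes of 7.58% for WT, 7.66% for Bmal1-/- and 11.9% for Clock-/- cells. WT replicate 3 held the lowest value of the 3 WT libraries for 28 of 32 genes (58.2% of all genes tested). Bmal1-/- replicate 2 was the lowest of its group for 24 of 32 (35.3% of all genes), and Clock-/- replicate 2 for 22 of 32 (61.9%).

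Loss of Bmal1 was accompanied by lower transcript levels across the sterol pathway. In Bmal1-/- cells 21 of the 32 genes fell and 2 rose at an adjusted p under 0.01 (limma on log2(TPM + 1), Benjamini-Hochberg over 15031 genes, two-sided), where 21.0% of all genes tested fell and 18.4% rose. The 21 that fell make up 65.6% of the set. As given above, the set is expressed above most genes, and the part of that in this and later comparisons with all genes was not tested. The median log2 fold change was -0.60 for the 32 genes and -0.04 for all genes tested. Without Bmal1-/- replicate 2, 18 genes fell and 1 rose. In 24 of 32 genes every Bmal1-/- library lay below every WT library (35.1% of all genes).

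In Clock-/- cells, too, more of these genes fell than rose. Here 14 of the 32 genes fell and 1 rose, where 14.4% of all genes tested fell and 9.50% rose. The median log2 fold change was -0.45, against -0.02 for all genes, and 22 of 32 genes had every Clock-/- library below every WT library (25.8% of all genes) and 1 every library above (20.7%). The count leaned on single libraries: it was 8 in place of 15 without WT replicate 1, WT replicate 2 or Clock-/- replicate 1, and 7 of the 15 calls held in each of the 9 fits that left out 1 library. In Bmal1-/- cells 19 of the 23 calls held in each of those fits, and those of Mvk, Pmvk, Dhcr7 and Acly did not. Both knockouts were compared with the same 3 WT libraries, so their values are given side by side and not as independent results.

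**Figure D1:**
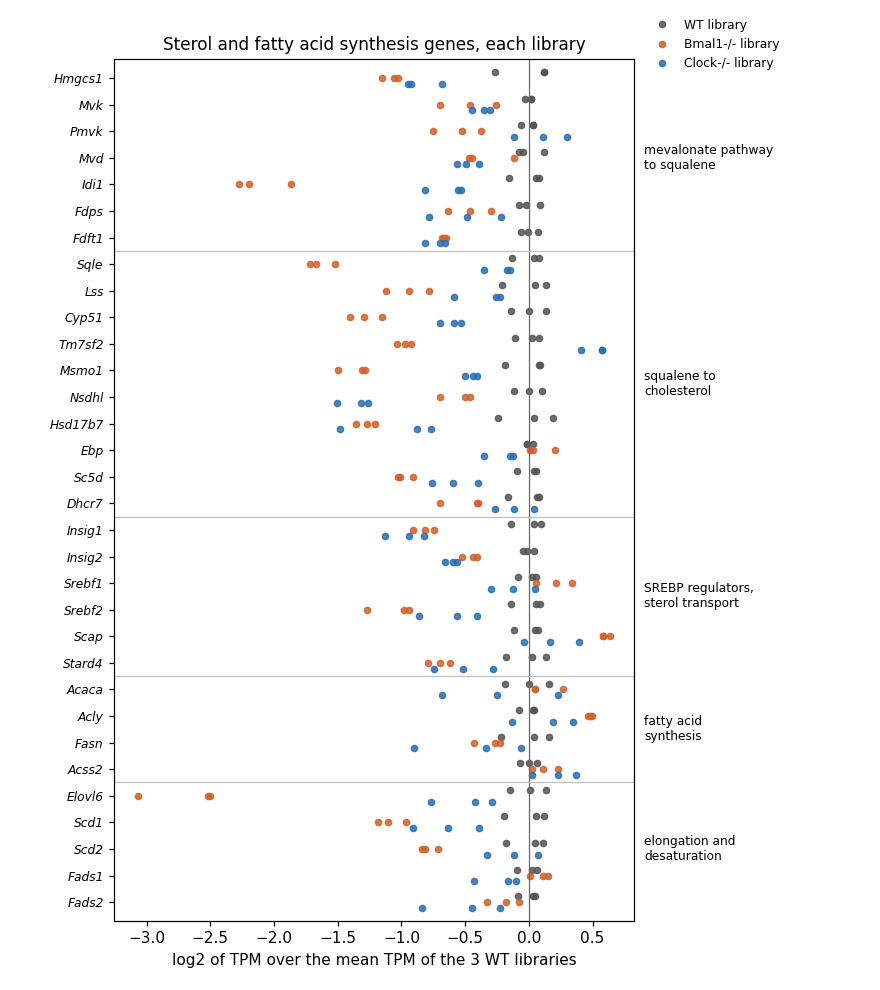
Level of each of the 32 genes in each of the 9 libraries, as the log2 of TPM over the mean TPM of the 3 WT libraries, with genes grouped by role from top to bottom and WT, Bmal1-/- and Clock-/- libraries in grey, orange and blue. Bmal1-/- libraries lie left of all WT libraries for 24 of 32 genes, with Elovl6, Idi1 and Sqle farthest out, and Clock-/- libraries for 22 of 32.

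Promoter sequence is shown for a few of these genes, since SREBP-2 acts together with the factor NF-Y and since E-boxes bind BMAL1 and CLOCK. RefSeq promoter windows (GRCm38.p6, 250 bases before to 50 after the RefSeq gene start) were matched for 25 of the 32 genes, in 33 windows, and not for Fdps, Fdft1, Sqle, Stard4, Fads1, Scd1 and Scd2. The NF-Y box CCAAT, searched on either strand, occurred in 22 of the 33 windows (66.7%), against 37.4% of the 32851 windows of all genes. The E-box CACGTG occurred in 6 windows (18.2%, against 7.15%), those of Hsd17b7, Insig1, Sc5d, Dhcr7 and Scap, of which Scap was counted with overlapping windows. By gene, 5 of 25 held an E-box and 21 of 25 an NF-Y box. The share of all genes was not computed by gene. Genes with several windows have more room for a match, so these counts cannot be set against the window shares. CACCCCA, the inner letters of the sterol regulatory element, occurred in 2 windows (6.06%, against 7.62%), those of Hmgcs1 and Srebf2. The windows of all genes cover 27025 genes, more than the 15031 tested, and the part of expression level in these shares was not tested. These are letter matches, and binding at them was not measured.

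The 250 bases before the RefSeq start are printed 5′ to 3′ on the strand of the gene for Idi1, which had the second largest fold change of the set and 2 NF-Y boxes, and for Hmgcs1 and Hsd17b7, which were chosen after their values were seen because they hold the sterol element and an E-box. Capitals mark the matches: ATTGG is the NF-Y box read on the other strand, CACCCCA the sterol element and CACGTG the E-box.
Idi1 chr13:8885356-8885605: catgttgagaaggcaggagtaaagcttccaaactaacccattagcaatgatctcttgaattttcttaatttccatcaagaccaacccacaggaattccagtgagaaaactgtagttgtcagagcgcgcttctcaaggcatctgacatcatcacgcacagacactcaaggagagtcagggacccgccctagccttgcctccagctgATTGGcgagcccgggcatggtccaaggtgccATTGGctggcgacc
Hmgcs1 chr13:119690101-119690350: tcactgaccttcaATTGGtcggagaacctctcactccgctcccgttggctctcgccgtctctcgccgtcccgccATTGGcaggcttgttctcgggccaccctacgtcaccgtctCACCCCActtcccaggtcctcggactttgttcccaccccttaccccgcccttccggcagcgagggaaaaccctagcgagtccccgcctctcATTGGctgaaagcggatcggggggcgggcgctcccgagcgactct
Hsd17b7 chr1:169969206-169969455: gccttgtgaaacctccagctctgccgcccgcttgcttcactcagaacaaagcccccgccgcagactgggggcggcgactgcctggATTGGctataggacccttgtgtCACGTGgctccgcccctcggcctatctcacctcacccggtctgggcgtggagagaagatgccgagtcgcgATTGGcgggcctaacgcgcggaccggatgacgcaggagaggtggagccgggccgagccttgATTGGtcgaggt
The NF-Y boxes of Idi1 began 45 and 14 bases before its RefSeq start. Hmgcs1 held NF-Y boxes at 237, 176 and 45 bases and the sterol element at 136 bases before its RefSeq start, and Hsd17b7 NF-Y boxes at 165, 73 and 12 bases and the E-box at 143 bases before its own. GENCODE, used for the gene positions and the peaks, places these starts elsewhere: the RefSeq start lies 105 bases inside the GENCODE gene for Idi1 and 36 bases inside it for Hsd17b7, and 28 bases upstream of it for Hmgcs1. Both boxes of Idi1 and the box of Hsd17b7 nearest its start therefore lie within the gene as GENCODE draws it. Elovl6, with the largest fold change of the set, held none of the 3 motifs in its window.

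In the mevalonate pathway, 5 of 7 genes fell in Bmal1-/- cells and 4 of 7 in Clock-/- cells, and none rose in either. Over all genes tested, 21.0% fell in Bmal1-/- and 14.4% in Clock-/- cells. Their levels summed to 515, 522 and 473 TPM across WT, 339, 292 and 314 TPM across Bmal1-/- and 364, 380 and 342 TPM across Clock-/- libraries, so that neither knockout overlapped WT. Idi1, the isomerase that interconverts isopentenyl and dimethylallyl diphosphate (ENSMUSG00000058258.14, chr13:8885501-8892451 of mm10), was at 17.5, 17.3 and 14.9 TPM across WT, 3.62, 3.43 and 4.55 TPM across Bmal1-/- and 11.5, 9.44 and 11.3 TPM across Clock-/- libraries. The Bmal1-/- libraries, at 23.4% of the WT mean, lay below those of both other genotypes. Its log2 fold change was -1.85 (SE 0.13, adjusted p = 2.2e-06) in Bmal1-/- and -0.58 (SE 0.13, adjusted p = 0.00524) in Clock-/- cells, the latter lost in 4 of the 9 fits without 1 library.

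Hmgcs1, the cytosolic synthase that forms HMG-CoA (ENSMUSG00000093930.1, chr13:119690379-119708260), whose promoter is printed above, was at 128, 128 and 97.9 TPM across WT, 56.5, 53.1 and 57.8 across Bmal1-/- and 61.2, 62.2 and 73.6 across Clock-/- libraries. Both knockouts lay below all WT libraries, with log2 fold changes of -1.06 (SE 0.11, adjusted p = 4.2e-05) and -0.83 (SE 0.11, adjusted p = 3.7e-04). Fdft1, squalene synthase, was at 135, 143 and 130 TPM across WT, 85.9, 86.6 and 84.8 across Bmal1-/- and 83.8, 86.3 and 77.2 across Clock-/- libraries. Both knockouts lay below WT and overlapped each other, with log2 fold changes of -0.66 and -0.72 (SE 0.06, adjusted p = 2.1e-05 and 2.2e-05), and the difference between the knockouts was -0.06 (95% interval -0.20 to 0.08).

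The other 4 genes of the mevalonate pathway had log2 fold changes between -0.54 and 0.10. Mvk was at 42.2 to 43.6 TPM for WT, 26.6 to 36 for Bmal1-/- and 31.6 to 34.8 for Clock-/- libraries, and Pmvk at 89.4 to 95.2, 55.5 to 72 and 86.1 to 115 TPM. Mvk and Pmvk, the kinases that phosphorylate mevalonate and its phosphate, fell in Bmal1-/- cells by 0.46 (SE 0.10, adjusted p = 0.00371) and 0.54 (SE 0.12, adjusted p = 0.00329) on the log2 scale, but these calls were lost in 5 and 4 of the 9 fits without 1 library, and relative to the median of their chromosomes the changes were -0.34 (adjusted p = 0.0277) and -0.37 (adjusted p = 0.0681). In Clock-/- cells Mvk was at -0.36 (adjusted p = 0.0196) and Pmvk at 0.10 (adjusted p = 0.55). Mvd, the decarboxylase that follows, was at 59.5 to 67.9 TPM for WT, 45.3 to 57.7 for Bmal1-/- and 42.3 to 47.7 for Clock-/- libraries. It fell in Clock-/- cells (-0.47, SE 0.10, adjusted p = 0.00524, lost in 6 of 9 fits) and was at -0.34 (adjusted p = 0.019) in Bmal1-/- cells. Fdps, farnesyl diphosphate synthase, was at 32.1 to 36, 21.8 to 27.5 and 19.6 to 29 TPM in the same order and passed the test in neither (-0.45, adjusted p = 0.0193, and -0.48, adjusted p = 0.0205), although its libraries lay below all WT libraries in both knockouts.

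From squalene to cholesterol, 9 of 10 genes fell in Bmal1-/- cells and none rose, and in Clock-/- cells 5 fell and 1 rose. With the mevalonate genes, 14 of the 17 sterol synthesis enzymes fell in Bmal1-/- cells and 9 of 17 in Clock-/- cells, the latter being 5 of 17 without WT replicate 1. In the full fit 21.0% of all genes tested fell in Bmal1-/- cells. The shares in Clock-/- cells were 14.4% lower and 9.50% higher. The 10 later enzymes summed to 791, 754 and 683 TPM across WT, 421, 380 and 421 TPM across Bmal1-/- and 570, 533 and 546 TPM across Clock-/- libraries. Bmal1-/- libraries were the lowest, Clock-/- libraries in between, and the 3 genotypes did not overlap.

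Sqle, squalene epoxidase and a rate-limiting enzyme of the pathway (ENSMUSG00000022351.14, chr15:59315077-59331192), was at 117, 114 and 101 TPM across WT, 33.7, 34.8 and 38.7 across Bmal1-/- and 98.4, 87 and 100 across Clock-/- libraries. It fell in Bmal1-/- cells to 32.3% of the WT mean (log2 fold change -1.60, SE 0.09, adjusted p = 5.2e-07). In Clock-/- cells the change of -0.21 did not pass the test (95% interval -0.41 to -0.02, adjusted p = 0.0771), and relative to the median change of chromosome 15 it was 0.063. Cyp51, lanosterol demethylase, was at 238, 217 and 197 TPM across WT, 88.6, 82 and 97.8 across Bmal1-/- and 150, 144 and 134 across Clock-/- libraries. All 3 genotypes stood apart, with log2 fold changes of -1.27 (SE 0.09, adjusted p = 2.6e-06) and -0.60 (SE 0.09, adjusted p = 5.7e-04), though the latter was -0.34 (adjusted p = 0.0159) relative to the median of chromosome 5.

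Msmo1, the sterol C4-methyl oxidase, and Sc5d, the lathosterol desaturase, showed the same order. Msmo1 was at 87.6, 87 and 72.2 TPM across WT, 33.2, 29.1 and 33.7 across Bmal1-/- and 60.7, 62.2 and 58.2 across Clock-/- libraries, and fell by 1.33 (SE 0.09, adjusted p = 2.4e-06) and 0.44 (SE 0.09, adjusted p = 0.0045) on the log2 scale, the latter call being lost in 4 of the 9 fits without 1 library. Sc5d was at 59.9 to 66.5 TPM across WT, 31.4 to 34.1 across Bmal1-/- and 37.8 to 48.4 across Clock-/- libraries, with changes of -0.96 (adjusted p = 2.4e-05) and -0.58 (adjusted p = 0.00108). For neither gene did any 2 genotypes overlap. Hsd17b7, a sterol ketoreductase whose promoter is printed above, was at 21.3, 19.2 and 15.8 TPM across WT, 7.29, 8.08 and 7.77 across Bmal1-/- and 10.2, 6.68 and 11 across Clock-/- libraries. It fell in both knockouts, by 1.17 (SE 0.17, adjusted p = 3.0e-04) and 0.96 (SE 0.17, adjusted p = 0.00179), the latter call being lost without WT replicate 1, and the knockouts overlapped each other.

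Nsdhl and Tm7sf2 departed from that order. Nsdhl, the X-linked sterol dehydrogenase that acts with Msmo1 and Hsd17b7 in removing the C4 methyl groups (ENSMUSG00000031349.4, chrX:72918557-72958514), was at 51.5, 48 and 44.2 TPM across WT, 34.7, 29.6 and 33.9 across Bmal1-/- and 20, 16.9 and 19.2 across Clock-/- libraries. Clock-/- libraries were the lowest here, at 39.1% of the WT mean (log2 fold change -1.31, SE 0.10, adjusted p = 5.9e-06), against -0.54 (SE 0.10, adjusted p = 0.0011) in Bmal1-/- cells. Tm7sf2, a sterol C14 reductase (ENSMUSG00000024799.14, chr19:6062821-6068373), was at 12.9, 11.3 and 12.4 TPM across WT, 5.95, 6.41 and 6.23 across Bmal1-/- and 18.2, 18.2 and 16.2 across Clock-/- libraries. It fell in Bmal1-/- cells (-0.88, SE 0.09, adjusted p = 4.2e-05) and rose in Clock-/- cells (0.49, SE 0.09, adjusted p = 0.00277), and it was the gene of the set that rose there. The rise was lost without WT replicate 2 or Clock-/- replicate 1, and its groups did not overlap.

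Lss, which closes the sterol ring system, was at 28.3 to 36.1 TPM for WT, 15.1 to 19.1 for Bmal1-/- and 21.8 to 28 for Clock-/- libraries. It fell in Bmal1-/- cells (-0.90, SE 0.13, adjusted p = 2.8e-04) and was at -0.34 (adjusted p = 0.0666) in Clock-/- cells. Dhcr7, the last reductase before cholesterol, was at 30.6 to 36.3, 21.1 to 26 and 28.5 to 35.2 TPM in the same order. It fell in Bmal1-/- cells (-0.48, SE 0.11, adjusted p = 0.00535, lost in 5 of the 9 fits without 1 library) and was at -0.11 (adjusted p = 0.501) in Clock-/- cells. Ebp, the sterol isomerase, was the enzyme of these 10 with no call against WT in either line. It was at 121 to 125 TPM across WT, 123 to 141 across Bmal1-/- and 95.7 to 112 across Clock-/- libraries, with changes of 0.08 (95% interval -0.09 to 0.26) and -0.21 (95% interval -0.38 to -0.03).

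**Figure D2:**
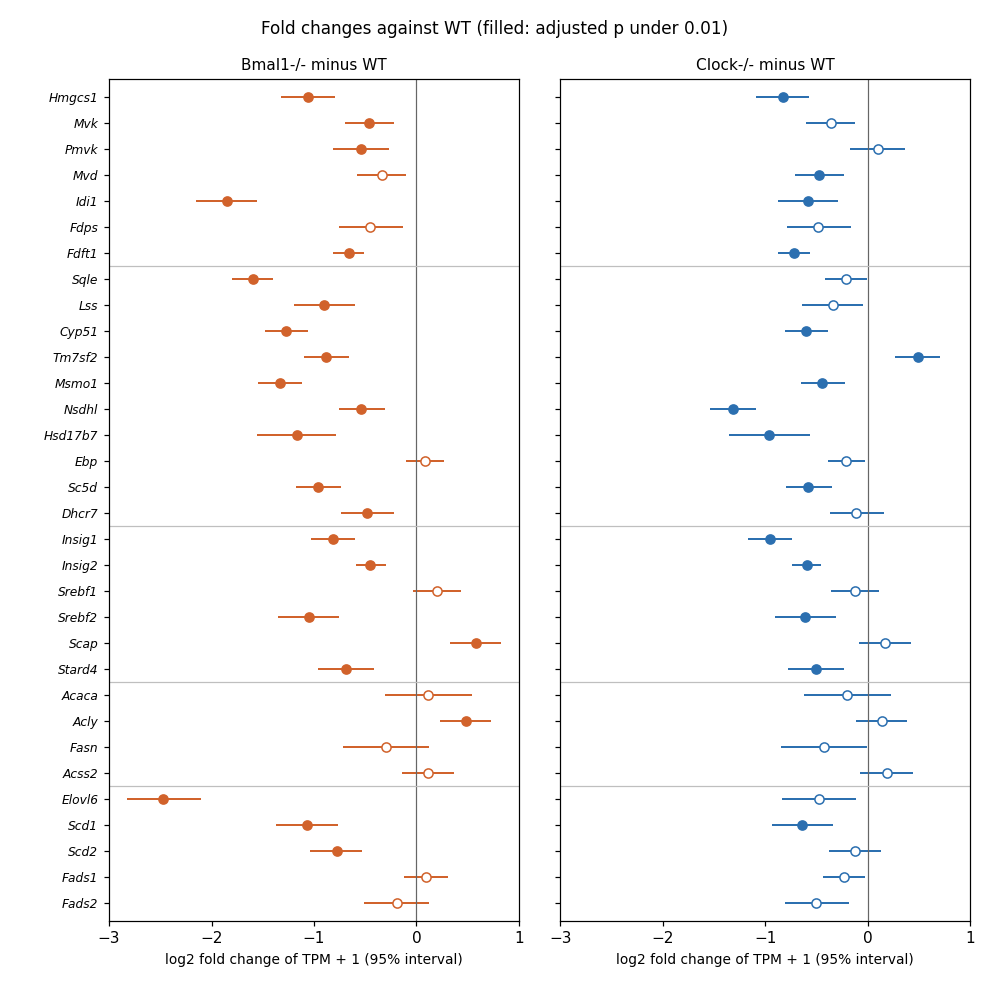
Log2 fold change of TPM + 1 for each of the 32 genes in Bmal1-/- (left) and Clock-/- (right) against WT, with 95% intervals; filled points have an adjusted p under 0.01. Elovl6 at -2.47, Idi1 at -1.85 and Sqle at -1.60 lie farthest left in Bmal1-/- cells, and Nsdhl at -1.31 in Clock-/- cells, where Tm7sf2 is the filled point to the right of 0.

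Among the regulators of the sterol response, 4 of 6 genes fell in each knockout, beside 21.0% (Bmal1-/-) and 14.4% (Clock-/-) of all genes tested. They were Srebf2, Insig1, Insig2 and Stard4 in both. Srebf2, which encodes SREBP-2 (ENSMUSG00000022463.7, chr15:82147181-82205379), was at 140, 137 and 120 TPM across WT, 68.7, 54.7 and 66.8 across Bmal1-/- and 89.1, 72.5 and 99.6 across Clock-/- libraries. Neither knockout overlapped WT. Its log2 fold change was -1.05 (SE 0.13, adjusted p = 8.7e-05) in Bmal1-/- and -0.61 (SE 0.13, adjusted p = 0.00432) in Clock-/- cells. The latter was -0.33 (adjusted p = 0.0233) relative to the median of chromosome 15, and was lost in 3 of the 9 fits without 1 library.

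Insig1 and Insig2, which retain SCAP in the endoplasmic reticulum, were lower in both knockouts. Insig1 was at 371, 357 and 315 TPM across WT, 198, 185 and 208 across Bmal1-/- and 181, 159 and 197 across Clock-/- libraries, and fell by 0.81 (SE 0.09, adjusted p = 6.2e-05) and 0.95 (SE 0.09, adjusted p = 4.1e-05) on the log2 scale. Insig2 was at 97.6 to 104 TPM across WT, 70.3 to 76 across Bmal1-/- and 64 to 68.3 across Clock-/- libraries. Its changes of -0.45 (SE 0.06, adjusted p = 1.8e-04) and -0.59 (SE 0.06, adjusted p = 5.5e-05) stood beside medians of -0.35 and -0.25 over the genes of chromosome 1, and relative to that median the Bmal1-/- change was -0.10 (adjusted p = 0.163). Stard4, a carrier of free cholesterol, was at 85.3 to 106 TPM across WT, 55.6 to 62.9 across Bmal1-/- and 57.5 to 79.2 across Clock-/- libraries, and fell by 0.69 (adjusted p = 9.0e-04) and 0.50 (adjusted p = 0.00842), the latter lost in 7 of the 9 fits.

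Scap and Srebf1 did not follow. Scap, the escort protein of the SREBPs (ENSMUSG00000032485.14, chr9:110333288-110384950), was at 23.8, 23.5 and 20.9 TPM across WT, 35.3, 34 and 33.9 across Bmal1-/- and 25.5, 22.1 and 29.8 across Clock-/- libraries. The Bmal1-/- libraries were the highest, and the gene rose there by 0.58 on the log2 scale (SE 0.11, adjusted p = 0.00133), while Clock-/- and WT libraries overlapped (0.17, adjusted p = 0.256). Srebf1, which encodes SREBP-1, was at 114 to 126 TPM across WT, 126 to 153 across Bmal1-/- and 98.5 to 125 across Clock-/- libraries, with changes of 0.20 (95% interval -0.02 to 0.43, adjusted p = 0.109) and -0.12 (95% interval -0.35 to 0.10, adjusted p = 0.358). The median change over chromosome 11, where Srebf1 lies, was 0.35 in Bmal1-/- cells, and relative to that median its change there was -0.15.

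Of the 4 enzymes that lead to palmitate, none fell in either knockout and 1 rose in Bmal1-/- cells. In Bmal1-/- cells 21.0% of all genes tested fell and 18.4% rose, and in Clock-/- cells 14.4% fell and 9.50% rose. Acly, which makes cytosolic acetyl-CoA from citrate (ENSMUSG00000020917.17, chr11:100476353-100528000), was at 1430, 1440 and 1326 TPM across WT, 1975, 1931 and 1951 across Bmal1-/- and 1599, 1277 and 1782 across Clock-/- libraries. Bmal1-/- libraries lay above all others. The log2 change was 0.48 (SE 0.11, adjusted p = 0.00383) in Bmal1-/- and 0.14 (adjusted p = 0.344) in Clock-/- cells. The call in Bmal1-/- cells was lost in 6 of the 9 fits without 1 library, and relative to the median of chromosome 11 the change was 0.13 (adjusted p = 0.249).

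Acaca, acetyl-CoA carboxylase, was at 8.15 to 10.4 TPM across WT, 9.59 to 11.2 across Bmal1-/- and 5.81 to 10.9 across Clock-/- libraries, so the groups overlapped (0.11, 95% interval -0.30 to 0.53, and -0.20, 95% interval -0.61 to 0.22). Relative to the median of chromosome 11, its change in Bmal1-/- cells was -0.24. Fasn, fatty acid synthase, was at 161, 148 and 124 TPM across WT, 123, 107 and 120 across Bmal1-/- and 114, 77.1 and 138 across Clock-/- libraries, with changes of -0.30 (95% interval -0.71 to 0.11) and -0.43 (95% interval -0.84 to -0.02, adjusted p = 0.0953). Relative to the chromosome median the change of Fasn in Bmal1-/- cells was -0.66 (adjusted p = 0.00394). Acss2 was at 8.20 to 9 TPM across WT, 8.76 to 10.1 across Bmal1-/- and 8.76 to 11.1 across Clock-/- libraries (0.11 and 0.19, adjusted p = 0.406 and 0.204).

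Of the 5 elongases and desaturases, 3 fell in Bmal1-/- cells (21.0% of all genes tested) and 1 in Clock-/- cells (14.4% of all genes tested). So few genes were not tested against these shares. Elovl6, which extends palmitate to stearate (ENSMUSG00000041220.10, chr3:129532355-129638495), showed the largest change of the 32 genes. It was at 35.4, 32.5 and 29.1 TPM across WT, 5.70, 3.85 and 5.65 across Bmal1-/- and 24.1, 19 and 26.4 across Clock-/- libraries. The 3 genotypes did not overlap, and Bmal1-/- cells held 15.7% of the WT mean (log2 fold change -2.47, SE 0.16, adjusted p = 1.5e-06). In Clock-/- cells the change was -0.47 (95% interval -0.83 to -0.12, adjusted p = 0.0415).

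Scd1 and Scd2, the stearoyl-CoA desaturases that make oleate, both fell in Bmal1-/- cells. Scd1 was at 195, 187 and 157 TPM across WT, 83.8, 79.3 and 92.2 across Bmal1-/- and 116, 95.8 and 137 across Clock-/- libraries, with changes of -1.07 (SE 0.13, adjusted p = 9.1e-05) and -0.64 (SE 0.13, adjusted p = 0.00371, lost in 3 of the 9 fits). Scd2 was at 2206, 2114 and 1800 TPM across WT, 1157, 1143 and 1241 across Bmal1-/- and 1880, 1621 and 2140 across Clock-/- libraries. Its Bmal1-/- libraries lay below all others (-0.78, SE 0.11, adjusted p = 2.2e-04), while Clock-/- and WT libraries overlapped (-0.12, adjusted p = 0.418). How reads that match both of these paralogs were counted was not stated, and the part of that in these values was not tested. Fads1 and Fads2, the delta-5 and delta-6 desaturases of polyunsaturated fatty acids, passed the test in neither line. Fads1 was at 548 to 613 TPM across WT, 590 to 651 across Bmal1-/- and 434 to 546 across Clock-/- libraries (0.09, adjusted p = 0.407, and -0.23, adjusted p = 0.0729), and Fads2 at 355 to 390, 300 to 358 and 211 to 323 TPM (-0.19, adjusted p = 0.258, and -0.50, adjusted p = 0.0167). Relative to the median of its chromosome the change of Fads2 in Clock-/- cells was -0.47 (adjusted p = 0.00678).

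**Figure D3:**
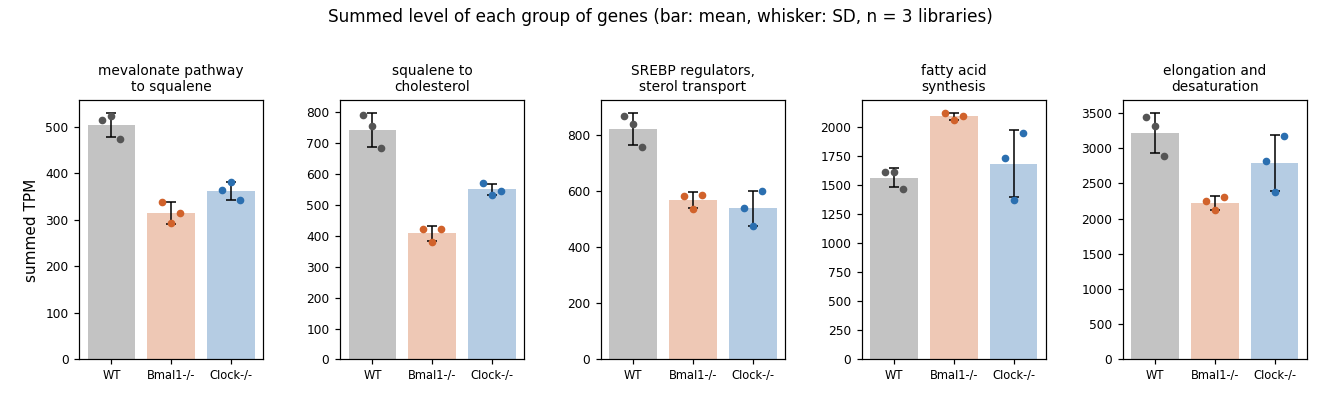
Summed TPM of each group of genes in each library (points), with the mean as a bar from 0 and the SD over 3 libraries as a whisker. Sterol synthesis genes are lower in both knockouts than in WT, and the fatty acid synthesis panel, which is mostly Acly, is highest in Bmal1-/- cells at 2057 to 2118 TPM.

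The 2 knockouts were then compared directly. Of the 32 genes, 10 were higher and 3 lower in Clock-/- than in Bmal1-/- cells, where 21.8% of all genes tested were higher and 22.8% lower. The libraries did not overlap for 14 higher genes (31.1% of all genes) and 7 lower genes (31.9%). Elovl6 differed most, by 2.00 on the log2 scale (SE 0.16, adjusted p = 5.2e-06), followed by Sqle at 1.39 (SE 0.09, adjusted p = 1.2e-06), Tm7sf2 at 1.36 (SE 0.09, adjusted p = 2.2e-06) and Idi1 at 1.27 (SE 0.13, adjusted p = 2.2e-05). Msmo1 (0.90), Cyp51 (0.67), Scd2 (0.66), Pmvk (0.64), Lss (0.56) and Sc5d (0.39) were the others that were higher in Clock-/- cells. Nsdhl was lower in Clock-/- than in Bmal1-/- cells (-0.78, SE 0.10, adjusted p = 9.2e-05), as were Scap (-0.41, adjusted p = 0.008) and Ebp (-0.29, adjusted p = 0.00942). The calls for Ebp, Scap, Sc5d and Lss were lost in 8, 7, 6 and 4 of the 9 fits without 1 library. Relative to the chromosome medians the calls for Pmvk (0.50, adjusted p = 0.0194) and Ebp (-0.45, adjusted p = 0.0109) ended, and Srebf2 (0.47), Scd1 (0.45), Dhcr7 (0.42), Fads1 (-0.31) and Insig2 (-0.23) passed the test. The count of genes lower in Clock-/- cells went from 3 to 6 without Clock-/- replicate 3 and to 1 when WT replicate 1, WT replicate 2, any Bmal1-/- library or Clock-/- replicate 1 was left out.

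For Hmgcs1 (0.23, 95% interval -0.03 to 0.48), Hsd17b7 (0.21, -0.17 to 0.60), Insig1 (-0.14, -0.35 to 0.07) and Stard4 (0.18, -0.08 to 0.45), which fell in both lines, the difference between the knockouts did not pass the test. These intervals leave room for differences of either sign, although every Clock-/- library lay above every Bmal1-/- library for Hmgcs1. Srebf2 (0.45, 0.16 to 0.73), Scd1 (0.43, 0.14 to 0.72) and Insig2 (-0.15, -0.28 to -0.01) also fell in both lines. Their differences between the knockouts did not pass the test either, but the unadjusted intervals did not change sign.

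Beyond the 32 genes, 71 of 75 other lipid genes in 6 lists from textbook knowledge were tested. In Bmal1-/- cells 19 of them fell (26.8%, against 21.0% of all genes tested) and 9 rose (against 18.4%). In Clock-/- cells 18 fell (25.4%, against 14.4%) and 8 rose (against 9.50%). Their median log2 changes were -0.09 and -0.08. The split in Bmal1-/- cells moved with the scaling, to 21 lower and 16 higher with median-ratio scaling and 19 and 18 relative to the chromosome median. Genes listed below with a fold change alone were picked after their values were seen, to name more of each count. Among other genes of sterol synthesis, 2 of 6 fell in Bmal1-/- cells, and 3 fell and 1 rose in Clock-/- cells. Of the acetoacetyl-CoA thiolases, Acat2 fell (-0.50) and Acat1 rose (0.65) in Clock-/- cells.

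In the list of SREBP processing and turnover, 4 of 9 genes fell in Bmal1-/- cells, and 2 fell and 1 rose in Clock-/- cells. Rnf139 and Syvn1, ubiquitin ligases of the endoplasmic reticulum, fell in both lines, Rnf139 by 0.72 and 0.50 and Syvn1 by 0.70 and 0.66 on the log2 scale (adjusted p = 2.9e-04, 0.00422, 2.5e-04 and 6.2e-04). The Clock-/- call for Rnf139 was lost in 4 of the 9 fits without 1 library and relative to the chromosome median (-0.23, adjusted p = 0.0668). Fbxw7 (-0.54) and Ubxn8 (-0.31) also fell in Bmal1-/- cells. In uptake, storage and efflux of sterols, 3 of 15 fell and 5 rose in Bmal1-/- cells, and 5 fell and 2 rose in Clock-/- cells. Abca1, the cholesterol exporter, rose in Bmal1-/- cells from 15.7 ± 1.65 to 37.3 ± 4.01 TPM (SD, n = 3; log2 change 1.19, SE 0.19, adjusted p = 4.9e-04) and fell in Clock-/- cells to 4.37 ± 1.62 TPM (-1.68, SE 0.19, adjusted p = 1.1e-04). Nr1h2, which encodes the sterol-sensing receptor LXRβ, rose in Bmal1-/- cells from 29.9 ± 1.24 to 70.1 ± 5.22 TPM (1.20, adjusted p = 5.9e-06) and was at 29.3 ± 3.32 TPM in Clock-/- cells. Mylip, a ubiquitin ligase induced by LXR, fell in both lines (-0.99, adjusted p = 5.8e-04, and -0.86, adjusted p = 0.00228), the Clock-/- call being lost without WT replicate 2. Gramd1a (-0.49) also fell in Bmal1-/- cells, where Npc2 (0.64), Stard3 (0.77) and Nr1h3 (0.71, from a mean of only 1.1 to 2.45 TPM) rose. In Clock-/- cells Abcg1 (-0.66), Gramd1a (-0.54) and Gramd1b (-0.65) fell, and Npc2 (0.54) and Soat1 (0.43) rose.

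The non-sterol isoprenoid branch shares its precursors with cholesterol. Of its 10 genes, 2 fell and 1 rose in Bmal1-/- cells, and 0 fell and 1 rose in Clock-/- cells. The shares of all genes tested that fell and rose were 21.0% and 18.4% in Bmal1-/- cells, and 14.4% and 9.50% in Clock-/- cells. The list counts in this paragraph were not tested against those shares. Pdss1, of ubiquinone synthesis, and Nus1, of dolichol synthesis, fell in Bmal1-/- cells by 1.07 (adjusted p = 1.6e-04) and 0.59 (adjusted p = 3.3e-04) on the log2 scale, and were at -0.01 and -0.07 in Clock-/- cells. Fnta, a subunit of the protein prenyltransferases, rose in Bmal1-/- (0.25, adjusted p = 0.00394) and in Clock-/- cells (0.25, adjusted p = 0.00553), the latter call being lost in 6 of the 9 fits and relative to the chromosome median (0.20, adjusted p = 0.0383). In fatty acid activation and precursor supply, 5 of 20 fell and 2 rose in Bmal1-/- cells, and 4 fell and 3 rose in Clock-/- cells. Me1, the cytosolic malic enzyme that supplies NADPH, fell in both lines (-1.09, adjusted p = 4.1e-06, and -0.67, adjusted p = 1.8e-04). Slc25a1, the mitochondrial citrate carrier, rose in Bmal1-/- cells (0.43, adjusted p = 4.9e-04), but fell in Clock-/- cells (-0.76, adjusted p = 2.4e-05), where it was at -0.31 (adjusted p = 0.0243) relative to the chromosome median. Of the acyl-CoA synthetases, Acsl4 fell in Bmal1-/- cells (-0.79, adjusted p = 5.9e-04) and Acsl5 in Clock-/- cells (-0.82, adjusted p = 4.3e-05). Hsd17b12 (-0.36) and Mid1ip1 (-0.35) also fell and Hacd1 (0.69) rose in Bmal1-/- cells. In Clock-/- cells Mlxipl (-0.67) fell and Elovl5 (0.53) and Tecr (0.45) rose. Hacd4 fell in Bmal1-/- (-0.98) and rose in Clock-/- cells (0.95), but at low levels. Its means were 1.1 TPM across WT, 0.0692 across Bmal1-/- and 3.1 across Clock-/- libraries. In glycerolipid synthesis, 3 of 11 fell and 1 rose in Bmal1-/- cells and 4 fell in Clock-/- cells. Dgat2 and Dgat1, which complete triglycerides, fell in Bmal1-/- cells (-0.73, adjusted p = 0.00207, and -0.63, adjusted p = 1.5e-04), and the acyltransferases Agpat4 and Agpat1 fell in Clock-/- cells (-0.56, adjusted p = 0.00117, and -0.44, adjusted p = 7.7e-04). Agpat2, at a mean of 4.31 TPM across WT, fell in both (-2.35 and -1.47), and Agpat3 rose in Bmal1-/- cells (0.26), but fell in Clock-/- cells (-0.32).

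THRAP3 peaks were examined at the starts of the same genes, as a description. The 4 lists differed in length, with 808 and 6128 peaks in WT and 12949 and 12226 in Bmal1-/- cells, so a larger share of genes has a peak in the longer lists. A peak within 1000 bases of the gene start was listed for 1 and 9 of the 32 genes in the WT lists and for 11 and 9 in the Bmal1-/- lists. Over the 14973 genes tested with a position, the shares were 1.16%, 11.5%, 30.2% and 25%, against 3.12%, 28.1%, 34.4% and 28.1% of the 32. No gene of the set had a peak in all 4 lists (0.588% of all genes), and 21 had one in at least 1 (65.6%, against 42.3% of all genes). In WT cells the count rests on replicate 2, since it was 10 with either list and 1 without that replicate. Most of the 32 genes were expressed above the median of all genes, as given above, and the part of that in these shares was not tested.

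Hmgcs1, Mvk, Lss, Cyp51 and Srebf2 had a peak in both Bmal1-/- lists (15.6% of the set, 16.4% of all genes). None of these genes had a peak in WT, and the share of all genes under that further condition was not computed. At Srebf2 the peaks of the replicates, chr15:82147059-82147307 and chr15:82147315-82147559, do not overlap each other. Those at Lss, chr10:76531248-76531496 and chr10:76531474-76531718, meet only at their ends. At Hmgcs1 the peak of replicate 1, chr13:119690154-119690402, held 12.6 normalised tags at 7.22-fold over input, and that of replicate 2, chr13:119690330-119690574, held 16 tags at 9.21-fold. The former covers the sterol element and the NF-Y boxes at 176 and 45 bases of the printed promoter. The latter begins past every marked match and covers none of them. At Cyp51 the peaks held 28.3 and 16 tags at 5.41-fold and 4.61-fold over input. In WT replicate 2 the 9 genes were Fdps, Sqle, Tm7sf2, Insig1, Acaca, Fasn, Scd1, Fads1 and Fads2, with the most tags at Insig1, 19.4 at 4.81-fold over input, and the largest fold over input at Sqle, 8.54 tags at 10.6-fold. Neither Idi1 nor Elovl6, the genes that fell most in Bmal1-/- cells, had a peak in any list.

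**Figure D4:**
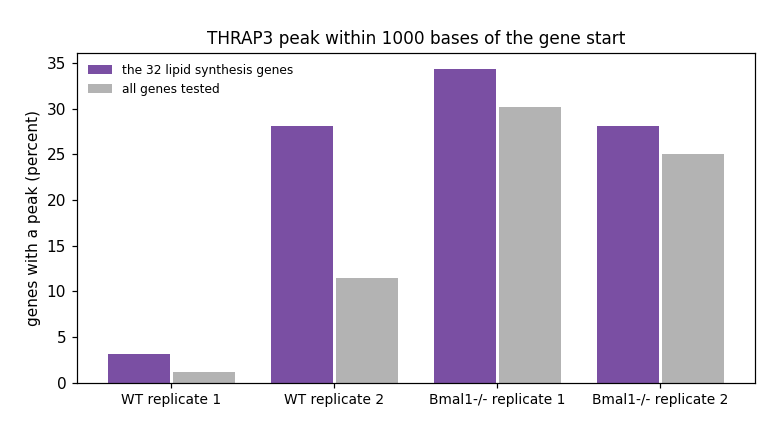
Percent of the 32 lipid synthesis genes (purple) and of all genes tested (grey) with a THRAP3 peak within 1000 bases of the gene start, for each of the 4 peak lists. The 32 genes stand at 3.12% and 28.1% in the WT lists and at 34.4% and 28.1% in the Bmal1-/- lists, against 1.16%, 11.5%, 30.2% and 25% of all genes.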

How the data were processed

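The authors aligned the RNA-seq reads with STAR 2.5.0 to mm10, counted them per gene with featureCounts 1.5.3 and deposited TPM, scaled to the same total in each library. TPM keeps no depth, so no count test was run. Symbols and positions came from GENCODE vM21 (GRCm38, the coordinates of mm10). limma 3.58.1 in R 4.3.3 was run on log2(TPM + 1) with a mean-variance trend, all 9 libraries together. The 15031 genes tested reached 1 TPM in 3 libraries or more. The method was first tested on simulated data, where the limit set for the share of smaller changes recovered was missed in the Clock-/- comparison and was then lowered, with the fit unchanged. P-values are two-sided, Benjamini-Hochberg adjusted over all genes tested, with calls below 0.01. Fold changes on the log2(TPM + 1) scale understate those of low genes. Intervals are 95% and unadjusted.

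The authors also deposited tables of their own DESeq2 1.22.1 comparisons (means, fold changes and p-values), which were not used. They called THRAP3 peaks in each library with HOMER over the input of that genotype, after alignment with Bowtie2 2.2.4. The deposited signal is tags per peak scaled by the authors to a common library total, the deposited ratio is the fold over input, and the deposited score served to rank peaks. A peak counted with 1 base inside the window. The eCLIP data, ChIP inputs and splicing were not analysed here.

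The 32 genes and the other lists were chosen with earlier results of these data known, and the 17 sterol enzymes were pooled after the fit had been seen. Other lipid genes were named by rule, up to 2 per list and comparison with WT: the largest fold changes past the test, given a mean of 5 TPM or more in whichever group was higher. Alternatives varied the value added to TPM, the filter, the scaling, chromosome centring, a replicate block, the libraries fitted, the call rule, and for peaks the window, score and overlap. Some genes of these lists are counted but not reported here by name.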

Additional observations from a re-analysis of the deposited data

How the results depend on the processing

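The counts of genes past the test were recomputed with 0.1 added to TPM, with no filter or a mean TPM of at least 5, with median-ratio scaling, with values centred on the chromosome median, with a replicate block, with only the 2 groups compared, with a log2 fold change above 1, and without each library. Requiring a log2 fold change above 1 left 9 of the 32 genes in Bmal1-/- (9 lower, 0 higher), 1 in Clock-/- (1 lower, 0 higher) and 4 between the knockouts (0 lower, 4 higher). For the 17 sterol enzymes it left 6 lower in Bmal1-/-, 1 lower and 0 higher in Clock-/-, and 0 lower and 3 higher between the knockouts, and for the other lipid genes 7, 3 and 5. The share of all genes tested was not computed under this rule or the other alternative fits. Whether these counts exceed the general rate is therefore not known. Without each library in turn, the 32 genes gave 19 to 24 calls in Bmal1-/- (18 to 22 lower, 1 to 2 higher), 8 to 15 in Clock-/- (7 to 14 lower, 0 to 1 higher) and 9 to 15 between the knockouts (1 to 6 lower, 8 to 13 higher). The sterol enzymes gave 11 to 15 lower in Bmal1-/-, 5 to 10 lower and 0 to 1 higher in Clock-/-, and 1 to 2 lower and 6 to 9 higher between the knockouts. The labels do not say whether libraries with the same replicate number were handled together. Libraries with the same number had correlations of their deviations of -0.208 to 0.0742 over 9 pairs, and the 18 other pairs -0.163 to 0.212. Deviations within groups of 3 libraries depend on each other, so these values cannot settle whether the libraries were paired. With the replicate block the genes higher in Clock-/- went from 1 to 0 (sterol enzymes 1 to 0) and those lower in Clock-/- than in Bmal1-/- from 3 to 1 (sterol enzymes 2 to 1), and the fit of only the 2 groups compared gave the same values, 0, 0, 1 and 1. No filter, median-ratio scaling and the chromosome median each left 1 sterol enzyme lower in Clock-/- than in Bmal1-/-. Centring on the chromosome median left 1 gene higher in Bmal1-/- and turned the sign of Srebf1 (-0.15) and Acaca (-0.24) in Bmal1-/-, of Sqle (0.063) in Clock-/- and of Insig1 (0.010) and Fasn (0.18) between the knockouts. Leaving out 1 library turned the sign of some values: in Clock-/- Pmvk ranged from -0.0029 to 0.20 and Acaca from -0.40 to 0.0015, each turned without Clock-/- replicate 2, and between the knockouts Mvk ranged from -0.0081 (without Bmal1-/- replicate 2) to 0.20, Fdps from -0.16 to 0.11 (turned without Bmal1-/- replicate 1 or Clock-/- replicate 3) and Fasn from -0.31 to 0.11 (turned without Clock-/- replicate 2). None of these reversed values passed the test, and their causes were not tested. The genes with a THRAP3 peak in either list went from 10 to 9 or 1 in WT without replicate 1 or 2, and from 15 to 9 or 11 in Bmal1-/- cells. TPM holds no read counts, so the counting error of low genes is unknown.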
